A study of Mus musculus with 9 samples.

Results

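RelA and RelB are the subunits of NF-κB whose binding to chromatin was compared here, gene by gene, in *Nfkb2*-/- mouse embryonic fibroblasts (MEFs) given 10 ng/ml TNF continuously for 6 h. The comparison used the 4 peak lists of that time point, 2 for a RelA (p65) antibody and 2 for a RelB antibody, out of 9 samples in the series. The other samples were 4 libraries at 0 h, without TNF, and 1 input of the same genotype. All groups thus lacked *Nfkb2*, the gene of p100, and the lines were immortalized by serial passage, so a wild-type comparison is not part of these data. Nothing in the labels says that the 2 lists of an antibody came from separate cultures, so p-values measure the spread between these lists, which may be technical. Peak lists hold no expression values, and the fibroblast identity of the cells could not be checked from them. Peaks of the 4 lists that overlapped by 1 bp or more were merged into 14781 sites. Of these, 1860 had a peak in all 4 lists and could be compared in reads, and 2203 of 22380 protein-coding genes had their start site within 50 kb of such a site.

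NF-κB dimers are held in the cytoplasm by IκB proteins and enter the nucleus once a stimulus such as TNF removes the inhibitor. RelA is best known for the rapid inflammatory program of the canonical pathway. RelB is best known for lymphoid organ development, where p100 normally both restrains it and, once processed to p52, partners it. In cells without p100, RelB can pair with p50 instead. Both subunits read the κB consensus, a 10-base element that starts with a run of G and ends with a run of C. The antibodies report where RelA or RelB was bound, and not which partner it had.

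For each peak the lists give the number of ChIP reads in its fullest window, called window reads below. Window reads were divided by the median of their own list, which was 13 or 14, before lists were compared. A gene's value was the sum over its sites found in all 4 lists. A difference is RelA minus RelB on the log2 scale, so positive values are higher for RelA. It was called at an adjusted p under 0.05 in edgeR's quasi-likelihood test with Benjamini-Hochberg adjustment, which is the test behind each adjusted p that follows.

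The sites that differed most between the antibodies, and that held a match to the κB consensus, are printed with the reference sequence around the match (NCBIM37, which is mm9, plus strand, 130 bases each). They show what the 2 antibodies were compared on, and the capitals mark the κB matches. The first 3 were higher for RelA. They were a site in an intron of *Sod2* (chr17:13203005-13203226), one in an intron of 4933426M11Rik (chr12:81913031-81913298) and one in an intron of *Ankrd55* (chr13:113117785-113117977). The windows printed are chr17:13203114-13203243, chr12:81913008-81913137 and chr13:113117874-113118003.
Sod2: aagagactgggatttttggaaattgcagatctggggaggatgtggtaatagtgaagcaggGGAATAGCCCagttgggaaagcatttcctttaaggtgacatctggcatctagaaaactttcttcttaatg
4933426M11Rik: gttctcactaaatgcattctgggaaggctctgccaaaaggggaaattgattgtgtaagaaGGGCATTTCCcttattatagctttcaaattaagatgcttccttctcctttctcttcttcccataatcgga
Ankrd55: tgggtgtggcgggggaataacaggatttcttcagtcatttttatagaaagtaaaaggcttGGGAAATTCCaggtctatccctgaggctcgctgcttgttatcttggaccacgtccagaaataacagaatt
The other 4 were higher for RelB and all lay outside genes. They were 10032 bp upstream of *Islr2* (chr9:58062158-58062767), 73920 bp upstream of *Gpr126* (chr10:14338762-14339117), 34359 bp upstream of *Zhx2* (chr15:57491666-57491861) and 6258 bp upstream of *Crb2* (chr2:37625321-37625511). The windows printed are chr9:58062434-58062563, chr10:14338999-14339128, chr15:57491728-57491857 and chr2:37625364-37625493.
Islr2: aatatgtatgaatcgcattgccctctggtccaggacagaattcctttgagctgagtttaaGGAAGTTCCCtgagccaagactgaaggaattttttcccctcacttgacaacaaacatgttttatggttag
Gpr126: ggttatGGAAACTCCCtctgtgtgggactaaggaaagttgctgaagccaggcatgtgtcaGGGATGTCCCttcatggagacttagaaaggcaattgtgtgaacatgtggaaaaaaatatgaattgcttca
Zhx2: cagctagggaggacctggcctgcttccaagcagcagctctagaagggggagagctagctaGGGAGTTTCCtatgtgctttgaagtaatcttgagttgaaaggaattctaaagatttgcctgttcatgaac
Crb2: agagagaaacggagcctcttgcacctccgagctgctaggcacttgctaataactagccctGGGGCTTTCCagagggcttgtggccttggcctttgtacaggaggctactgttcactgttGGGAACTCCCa
At the *Sod2* site the RelA lists had 39 and 46 window reads and the RelB lists had 12 and 11. At the *Islr2* site the RelA lists had 17 and 16 and the RelB lists 33 and 52, and at the *Gpr126* site 15 and 13 against 28 and 33. The RelA and RelB lists did not overlap at any of these sites, which follows from the rule that chose them.

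Lists of the same antibody lay closer to each other than lists of different antibodies. Across the 1860 sites, the SD of the log2 difference was 0.354 between the RelA lists and 0.368 between the RelB lists, and 0.487 to 0.501 between a RelA and a RelB list. The site test called 17 sites higher for RelA (0.914% of 1860) and 15 higher for RelB (0.806%). The gene test called 32 genes higher for RelA and 32 higher for RelB, 1.45% of the 2203 genes in each direction. Genes within 50 kb of the same sites share their value, so each group of 32 genes rests on 16 distinct sets of sites. All 2203 genes rest on 1054 distinct sets, and the gene test counts each gene as separate. For the called genes with 1 site that are named below, the site test on the same reads gave a larger adjusted p. Without regard to the test, both RelA lists lay above both RelB lists at 21.9% of sites and 24.1% of genes, and both RelB lists lay above both RelA lists at 25.6% and 27.1%. The replicate lists varied less than reads drawn at random would, with a mean quasi-dispersion of 0.614 across sites. With the spread held at or above counting noise, 2 sites and 61 genes were called. With 2 lists against 2, an exact two-sided permutation p cannot go below 0.333, so the calls rest on the spread pooled over all sites or genes. Leaving out any 1 list left 0 sites and 0 to 15 genes called, and DESeq2 called 0 sites and 5 genes. Counting all reads of a peak in place of its fullest window moved the median of all genes from −0.04 to 0.16 and called 146 genes for RelA and 25 for RelB.

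**Figure D1:**
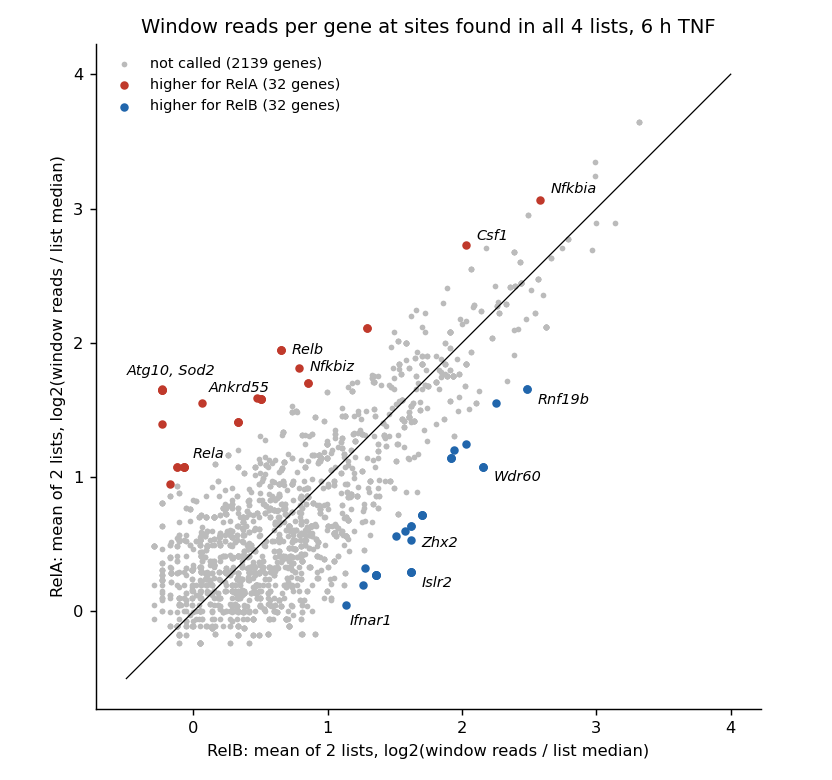
Window reads of the 2203 genes, as the log2 mean of the 2 RelB lists (x axis) and the 2 RelA lists (y axis), each divided by its list median. The line marks equal values. The 32 genes higher for RelA sit above it and the 32 higher for RelB below it. Genes that share sites fall on the same point.

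The genes that leaned most to RelA were *Sod2*, the mitochondrial superoxide dismutase, and *Atg10*, an enzyme of autophagosome formation. *Sod2* had 39 and 46 window reads in the RelA lists and 12 and 11 in the RelB lists, a 3.67-fold difference (log2 1.87 ± 0.27 SE, adjusted p = 3.34e-07). Its site lies in an intron, 2300 bp downstream of the start site, and is also within 50 kb of *Wtap*, *Acat2* and *Gpr31c*. *Atg10* had 43 and 42 against 11 and 12 (log2 1.87 ± 0.27, adjusted p = 3.34e-07) at a site 384 bp upstream of its start site (chr13:91363976-91364578). Each gene rests on 1 site, and the site test on the same reads gave an adjusted p of 0.00104 for both. For both genes the RelB values stood within 2 reads of the lowest that the RelB lists hold, which are 10 and 11 reads. The next were 4933426M11Rik, with 36 and 35 reads against 12 and 11, and *Ankrd55*, an ankyrin repeat gene, with 40 and 39 against 18 and 11. Both were called in an intronic site, with log2 differences of 1.62 and 1.44.

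Of the 5 genes of the NF-κB subunits themselves, *Relb* and *Rela* were called for RelA, where 1.45% of all genes tested were, and the other 3 were not called. All 5 differences were above 0 and their median was 0.79, against −0.04 over all 2203 genes. *Relb* itself had 55 and 49 window reads for RelA and 30 and 15 for RelB at a site 125 bp upstream of its start site (log2 1.20 ± 0.23 SE, adjusted p = 0.000159). The site test gave an adjusted p of 0.0216 at this site. The lowest RelA list stood well above the highest RelB list there, although the RelB lists differed from each other by as much as 15 reads. *Clasrp* and *Clptm1* share the site. *Rela* had 28 and 29 against 11 and 15 at its start site (log2 1.12 ± 0.29, adjusted p = 0.0228). *Rel*, which encodes c-Rel, had 37 and 41 against 21 and 24, a difference of 0.79 with an adjusted p of 0.0682. *Nfkb2*, the gene whose product these cells lack, had 58 and 56 against 44 and 45 (0.36, adjusted p = 0.422), and the RelA and RelB lists did not overlap. *Nfkb1*, which encodes p105 and p50, had overlapping values of 50 and 44 against 40 and 50 (0.06, adjusted p = 0.925).

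Of the 6 IκB genes tested, *Nfkbiz* and *Nfkbia* were called, both for RelA, against 1.45% of all genes, and the median of the list was 0.29. *Nfkbiz* encodes the nuclear IκBζ, which works as a coactivator of secondary response genes. It had 50 and 45 window reads against 20 and 27 at its start site (log2 1.01 ± 0.22 SE, adjusted p = 0.00497). *Nfkbia* encodes IκBα, the main feedback inhibitor. Its 3 sites summed to 114 and 111 reads for RelA and 82 and 79 for RelB (0.48 ± 0.13, adjusted p = 0.0383), a call that held in 5 of 19 alternatives. *Nfkbib* had 52 and 56 against 42 and 39 (0.41, adjusted p = 0.344). *Nfkbie* had 51 and 64 against 42 and 61 (0.16) and *Nfkbid* 33 and 27 against 20 and 34 (0.15), with overlap between the antibodies. *Bcl3*, an atypical IκB that works in the nucleus, was the only member below 0, with 73 and 77 against 82 and 78 (−0.09, adjusted p = 0.815).

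Signaling and secreted factors followed among the genes called for RelA. *Map3k8*, a kinase that links IKK to ERK signaling, had 35 and 23 window reads against 11 and 14 at its start site (log2 1.21 ± 0.30 SE, adjusted p = 0.0153), and *Mtpap* shares this site. *Csf1*, the macrophage colony-stimulating factor, had 86 and 93 reads against 53 and 57 over 3 sites (0.70 ± 0.15, adjusted p = 0.00497). *Fas*, a death receptor of the TNF receptor superfamily, had 63 and 54 against 32 and 34 over 2 sites (0.82 ± 0.19, adjusted p = 0.0128). *Acta2*, smooth muscle actin, has its start site near the same 2 sites and therefore the same values. *Gdnf*, a neurotrophic factor, had 20 and 34 against 11 and 13 (1.16, adjusted p = 0.0228) at a site 27463 bp downstream of its start site. The remaining genes of this direction named by the rule were *Llph* (1.07), 9130401M01Rik with *Fam83a* and *Zhx1* (1.00), and *Ddx25*, a germ-cell RNA helicase, with *Pus3*, *Hyls1* and *Pate2* (0.98).

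Of the genes called for RelB, *Islr2* and *Ifnar1* were named first, by size of difference. *Islr2*, a leucine-rich membrane protein, had 17 and 16 window reads for RelA and 33 and 52 for RelB (log2 −1.36 ± 0.25 SE, adjusted p = 0.000159). These reads come from 1 site, where the site test gave an adjusted p of 0.014. The site is shared with *Pml*, the scaffold of PML nuclear bodies, and with *Stoml1* and 1600029O15Rik. *Ifnar1*, a chain of the type I interferon receptor, had 15 and 13 against 23 and 38 at its start site (chr16:91485173-91485486; −1.12 ± 0.28, adjusted p = 0.02). At that site the test over sites, rather than genes, gave an adjusted p of 0.0633. Other named genes with 1 site, called in the gene test, also missed 0.05 in the site test. They were *Map3k8*, *Gdnf*, *Llph*, 9130401M01Rik, *Ddx25*, *Plekha4*, *Alg6*, *Cldn5* and 5430435G22Rik, with adjusted p from 0.053 to 0.0727. *Zhx2*, a transcriptional repressor, had 19 and 20 against 38 and 45 (−1.08 ± 0.24, adjusted p = 0.00561). *Wdr60*, a subunit of the dynein motor of cilia, had 28 and 29 against 53 and 68 over 2 sites (−1.08 ± 0.20, adjusted p = 0.000159). *Esyt2*, a tether between the endoplasmic reticulum and the plasma membrane, and Gm11027 share these sites.

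*Crb2*, a regulator of epithelial polarity, had 15 and 16 window reads for RelA and 29 and 36 for RelB (log2 −1.06, adjusted p = 0.0211). *Plekha4* had 12 and 22 against 40 and 30 (−1.04, adjusted p = 0.0189) and shares its site with *Ppp1r15a*, which encodes the stress phosphatase subunit GADD34, and with *Nucb1*, *Tulp2* and *Dhdh*. *Mtrf1l*, a mitochondrial translation release factor, had 21 and 21 against 41 and 42 (−0.98, adjusted p = 0.0152), and *Fbxo5*, an inhibitor of the anaphase-promoting complex, shares its site. *Alg6*, a glucosyltransferase of N-glycosylation, had 16 and 26 against 35 and 46 at a site 13 bp upstream of its start site (−0.94, adjusted p = 0.02). *Cldn5*, a tight junction claudin, had 22 and 18 against 42 and 35 at a site 42929 bp upstream (−0.94, adjusted p = 0.0228). *Rnf19b*, a ubiquitin ligase, had 42 and 43 against 78 and 73 over 2 sites (−0.83 ± 0.17, adjusted p = 0.00177). *Glis2*, a zinc finger transcription factor, and 5430435G22Rik completed the set, at −0.96 and −0.95.

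**Figure D2:**
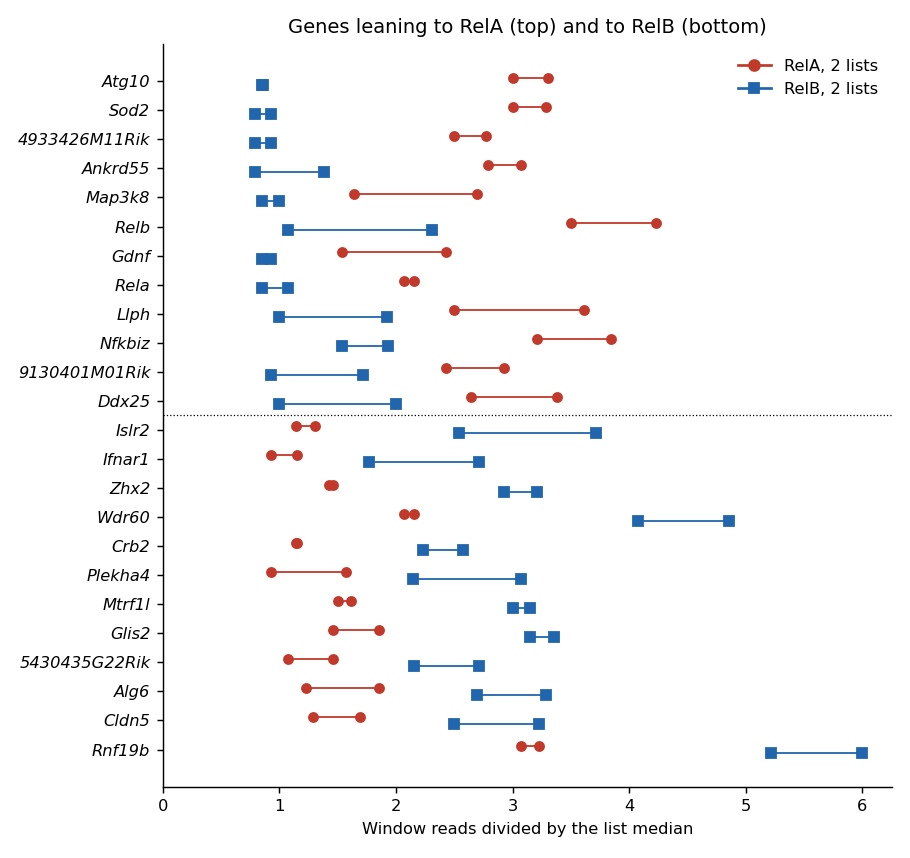
Window reads divided by the list median (x axis) for the 12 genes leaning most to RelA (above the dotted line) and the 12 leaning most to RelB (below it), with 1 point per list and a line joining the 2 lists of an antibody. The 2 antibodies do not overlap in any row, which the rule of choice required.

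Functions were described with 31 gene lists. In all, 165 of their genes were tested, near 147 distinct sets of sites. Of these genes, 9 were called for RelA and 0 for RelB in edgeR's test, against 1.45% in each direction over all genes tested. At an unadjusted p under 0.05 the counts of listed genes were 22 for RelA and 8 for RelB. Over all 2203 genes, 315 passed that threshold, both directions together. DESeq2 called 1 listed gene for RelA and 0 for RelB, against 5 and 0 over all genes. With limma, 6 and 2 listed genes were called, the latter being *Ifngr1* and *Sox9*, against 48 and 52 over all genes. Of the 28 lists with at least 3 genes tested, 16 had a median above that of all genes. These are counts and medians only, and no list was tested as a set.

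Inflammatory effectors were spread around 0. The 11 CC and CX3C chemokine genes, near 7 distinct sets of sites, had a median of −0.04. They ranged from −0.33 for *Ccl17* and *Cx3cl1*, which share their sites, to 0.48 for *Ccl20* and 0.35 for *Ccl11*, the eotaxin gene. *Ccl2* and *Ccl7*, monocyte chemoattractants that share 5 sites, had 152 and 187 window reads against 115 and 158 (0.31, adjusted p = 0.119). Among 5 CXC chemokine genes, near 3 distinct sets of sites, the median was 0.19. The values ran from −0.20 for *Cxcl16* to 0.31 for *Cxcl9* and *Cxcl10*, which share 1 site. *Cxcl1* and *Cxcl2*, which share 3 sites, stood at 0.19. No chemokine gene was called. The 8 interleukin and receptor genes had a median of −0.22. They ranged from *Il27* at −0.55, with 41 and 38 reads against 58 and 58, to *Il23a* at 0.78, with 21 and 17 against 11 and 11. The *Il23a* site covers the start site of *Pan2* and lies 5084 bp upstream of *Il23a*. Its RelB values stood at or near the floor of 10 or 11 reads. *Il15* stood at 0.61, and *Il1a* and *Il1b*, which share a site, at −0.25.

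The TNF superfamily split by gene. Its 7 tested genes had a median of −0.25 although *Fas* was called for RelA. *Tnf*, *Lta* and *Ltb* share 1 site, with 20 and 22 window reads for RelA and 21 and 29 for RelB (−0.25, adjusted p = 0.742). That site lies in an intron of *Aif1*, 19577 to 30489 bp from the start sites of the 3 genes. *Tnfsf18* had 12 and 14 against 16 and 25 (−0.65) and *Tnfsf15* had 16 and 15 against 11 and 11 (0.49). Both RelB lists lay above both RelA lists for 5 of the 7 genes, against 27.1% of all genes, and 3 of the 5 share 1 site. The TNF receptor adaptors had a median of −0.03 over 9 genes. *Traf2*, which recruits the ubiquitin ligases of the receptor complex, leaned to RelB with 65 and 53 against 91 and 76 (−0.50, adjusted p = 0.0766). *Ripk2* leaned to RelA with 85 and 91 against 60 and 62 (0.53, adjusted p = 0.0545), and *Traf3*, which destabilizes the kinase NIK, stood at 0.47. *Tnfrsf1b*, the TNF receptor TNFR2, stood at −0.30. *Birc2* and *Birc3* share 2 sites and had overlapping values (−0.03).

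Ubiquitin feedback genes had 3 of 6 tested genes on either side of 0. *Tnfaip3*, which encodes A20, had 131 and 125 window reads over 4 sites against 101 and 114 (0.25, adjusted p = 0.378), and *Zc3h12a*, the RNase Regnase-1, stood at 0.21. *Otud7b* (−0.52) and *Cyld* (−0.47), both deubiquitinases, stood at the RelB end. Of the kinase genes upstream of NF-κB, *Map3k14*, which encodes NIK, had 13 and 13 against 11 and 11 (0.24, adjusted p = 0.815) beside *Map3k8*.

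The 11 interferon response genes had a median of 0.13, with 6 above 0 and 5 below it. *Ifngr1*, a chain of the interferon-γ receptor, had 18 and 19 window reads against 31 and 34 (−0.81, adjusted p = 0.0959), and *Stat5a* stood at −0.68. *Stat2* stood at 0.78, at the site over the *Pan2* start that it shares with *Il23a*, 32595 bp downstream of its own start site. *Irf1* had 70 and 73 against 53 and 47 over 3 sites (0.51, adjusted p = 0.102). None of these was called. In antigen processing, *Tap1*, *Tap2*, *Psmb8* and *Psmb9* share 1 site with 17 and 18 reads against 28 and 20 (−0.45), while *B2m*, the light chain of MHC class I, had 22 and 24 against 19 and 13 (0.52) and *H2-T23* stood at 0.33.

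Other lists had RelB-leaning medians with no gene called. Growth factors and their receptors had the lowest median, −0.34 over 5 genes. *Pdgfra*, the PDGF receptor α chain, had 11 and 22 window reads against 28 and 27 (−0.73, adjusted p = 0.212), *Igfbp3* had 24 and 25 against 30 and 41 (−0.53), and *Egfr* had 39 and 52 against 31 and 37 (0.42). Survival genes had a median of −0.12 over 10 genes, 9 of them below 0, from −0.84 for *Birc5*, which encodes survivin, to 0.43 for *Bid*. Complement genes stood at −0.19 over 3 genes. Toll-like receptors and adaptors stood at −0.14 over 4, with *Nod2* at −0.47, *Nod1* at −0.30, *Irak2* at 0.03 and *Tlr2* at 0.48. *Nod2* and *Cyld* share 1 site, which lies at the start site of *Cyld*. *Sox9*, a regulator of cartilage development, had 13 and 13 against 22 and 25 (−0.85, adjusted p = 0.181). Collagens, laminins and integrins had a median of −0.11 over 9 genes, with *Col1a2* at −0.50 and *Lamc1* at −0.26 on the RelB side and *Lama4* at 0.37 on the RelA side.

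Lists with positive medians included oxidative defense and iron genes (0.38 over 4 genes). There *Lcn2*, the iron-sequestering lipocalin, had 21 and 18 window reads against 12 and 13 (0.64, adjusted p = 0.422) beside *Sod2*. The *Lcn2* site lies 35631 bp upstream of its start site. Prostaglandin and nitric oxide genes had a median of 0.30 over 4 genes, with *Ass1* at 0.42 and *Ptgs1* at 0.40. Cytoskeletal genes had a median of 0.21 over 6 genes, with *Actb* at 0.49 beside *Acta2*. Metabolic genes had a median of 0.22 over 5 genes, with *Slc2a6* at 0.64, *Acsl1* at 0.50 and *Pfkfb3* at −0.33. In the colony-stimulating factor and IL-6 family, *Osm*, oncostatin M, had 28 and 20 against 12 and 11 (1.05, adjusted p = 0.0682). Its site lies in an intron of *Tbc1d10a*, 40553 bp upstream of *Osm*, and is shared with *Tbc1d10a*, *Ccdc157*, *Gatsl3* and *Sf3a1*. *Cntf* and *Lif* of the same list stood at −0.48 and −0.38. *Vcam1* led the adhesion genes at 0.62, and the other 3 members lay between −0.09 and 0.05.

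**Figure D3:**
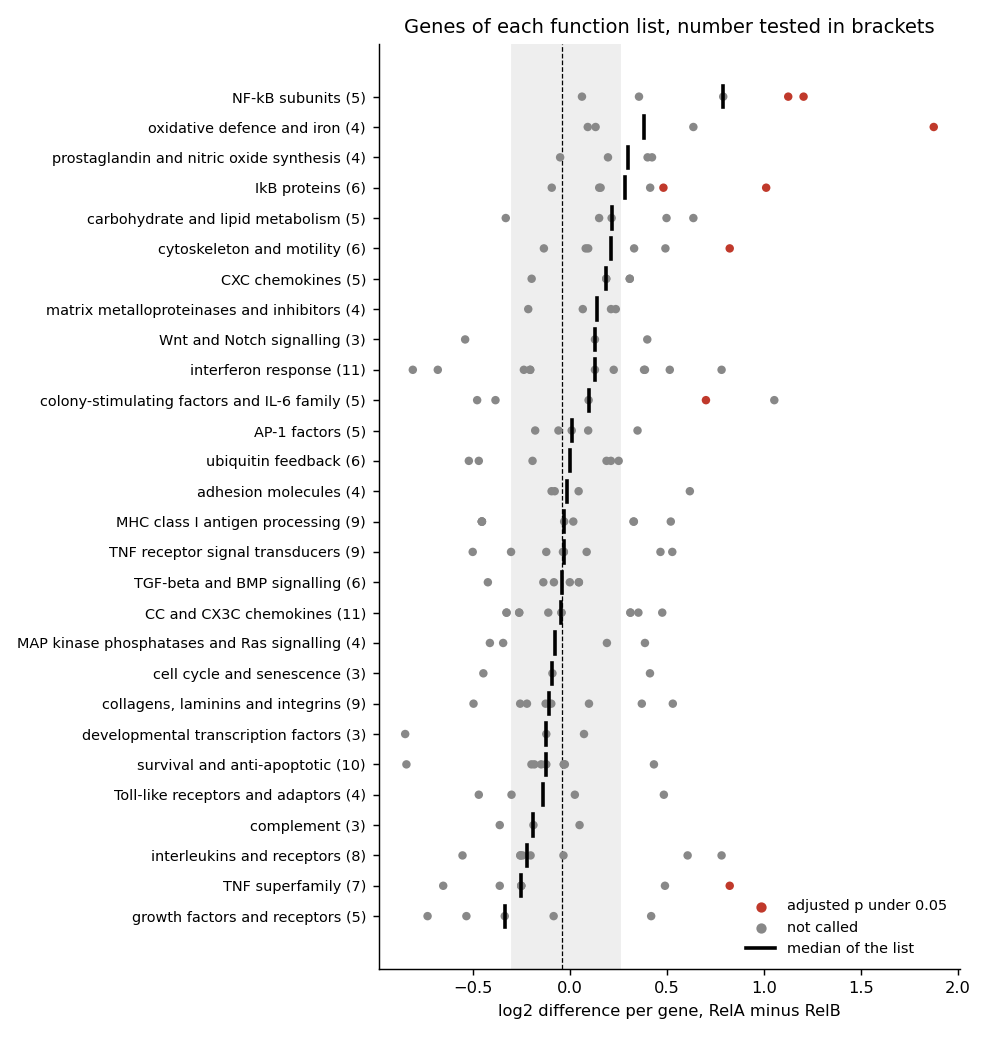
Difference of each tested gene (x axis, log2, RelA minus RelB) in the 28 function lists with at least 3 tested genes, ordered by their median (black bar). The dashed line and gray band give the median, −0.04, and the middle 50% of all 2203 genes. The red points, genes with an adjusted p under 0.05, all lie on the RelA side.

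Sites of the same gene could lean differently, and the genes described here were chosen after their values were seen. *Csf1* had 33 and 36 window reads for RelA and 10 and 13 for RelB at its start site (chr3:107563095-107563505), a difference of 1.57 ± 0.26 SE with an adjusted p of 0.00793. At a site 15446 bp upstream it had 24 and 36 against 19 and 21 (0.58), and at one 32928 bp upstream 29 and 21 against 24 and 23 (0.09). The RelA lean of *Csf1* was thus largest at the start site and the lists overlapped at the farthest site. *Ccl2* had 59 and 66 against 28 and 36 at the site 1958 bp upstream (chr11:81845861-81847115; 0.96 ± 0.16, adjusted p = 0.0102). Its site 23483 bp upstream had 17 and 28 against 32 and 29, a difference of −0.44. For *Bcl3*, the value near 0 was a sum of sites on both sides of it. The intronic site 5096 bp downstream of the start had 25 and 30 against 20 and 19 (0.49), the start site 24 and 26 against 25 and 24 (0.03), and the site 4034 bp upstream 24 and 21 against 37 and 35 (−0.68, adjusted p = 0.199).

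At *Nfkbia* the start site differed least, with 50 and 53 window reads against 43 and 44 (0.24), and the site 49271 bp downstream differed most, with 31 and 30 against 17 and 14 (0.97, adjusted p = 0.0659). *Irf1* also differed most at its farthest site. It had 25 and 21 against 23 and 19 at a site 6230 bp upstream (0.13), 25 and 24 against 19 and 15 at the start site (0.52) and 20 and 28 against 11 and 13 at a site 48827 bp downstream (0.99, adjusted p = 0.0984). *Il34*, another ligand of the Csf1 receptor, had 21 and 20 against 36 and 32 at an intronic site 11138 bp downstream (−0.73, adjusted p = 0.162), while its other 4 sites lay between −0.45 and 0.28. *Fas* had 44 and 36 against 20 and 19 at its start site (1.03, adjusted p = 0.0331). Both sites of *Ripk2*, at 4965 and 34834 bp upstream, stood near 0.5.

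**Figure D4:**
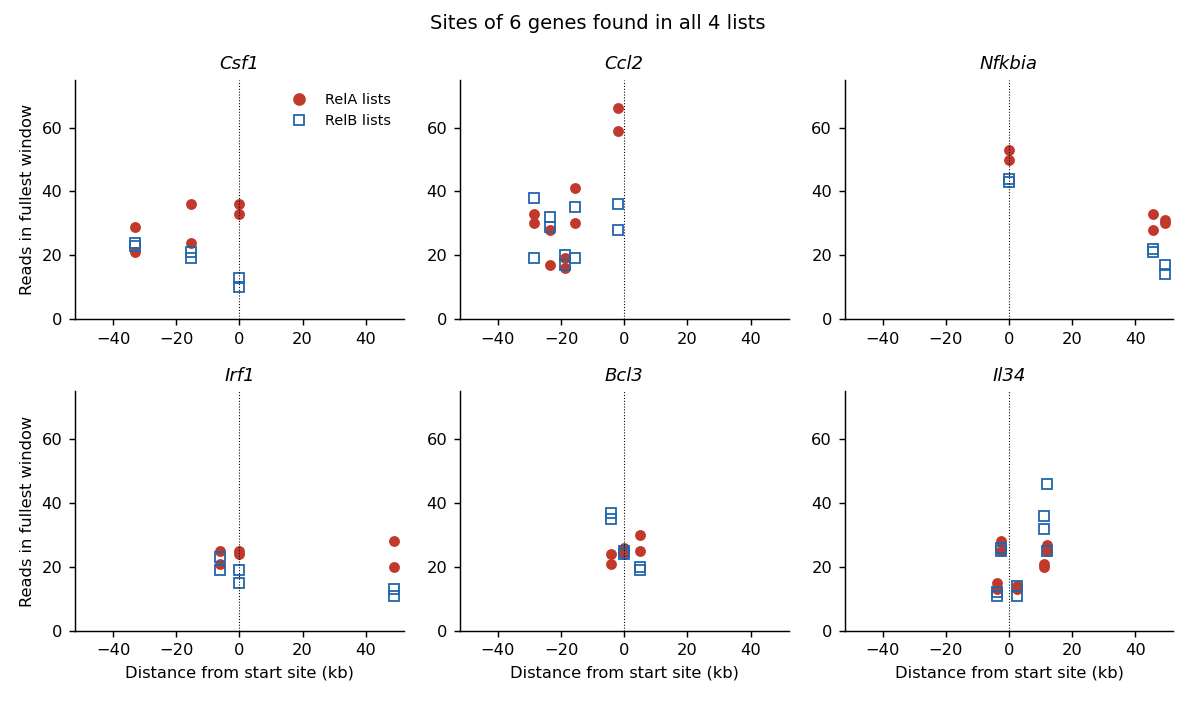
Reads in the fullest window (y axis) of each site found in all 4 lists within 50 kb of the start site of 6 genes, by distance from that start site (x axis, kb, upstream negative). Red points are the 2 RelA lists and blue squares the 2 RelB lists. RelA is well above RelB at the *Csf1* start site, and RelB is above RelA at the *Bcl3* site 4034 bp upstream.

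Of the genes that the study followed in more detail, only *Relb* and *Csf1*, described above, were called in edgeR's test. *Tlr2*, a receptor for bacterial lipoproteins, had 68 and 58 window reads against 38 and 52 over 2 sites (0.48 ± 0.18 SE, adjusted p = 0.189). *C3*, the central complement component, had 26 and 23 against 29 and 34 (−0.36, adjusted p = 0.564), and *Mras*, a Ras-related GTPase, had 30 and 33 against 40 and 40 (−0.34, adjusted p = 0.555). *Bcl10*, an adaptor of antigen receptor signaling, had 15 and 18 against 18 and 18 (−0.12, adjusted p = 0.899). *Klf5* had no site in all 4 lists. It had 1 peak within 50 kb in RelA list 2 and in each RelB list, and 0 in RelA list 1.

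Some genes had reproducible sites of 1 factor and no peak of the other within 50 kb. Of 4196 protein-coding genes near a site found in both lists of an antibody, 240 (5.72%) had such sites of RelA only and 231 (5.51%) of RelB only. These 471 genes rest on both lists of each antibody, and leaving out 1 list gave 1350 to 2426. A missing peak means that the caller's thresholds were not met, and not that the factor was absent. The strongest of these sites were moderate, with 17 to 31 window reads. On the RelA side they included an intron of *Arid1a*, a chromatin remodeler subunit, with 21 and 20 reads, and the start sites of *Mki67*, the proliferation marker Ki-67, with 20 and 18, and of *Notch2*, a Notch receptor, with 21 and 18. A site 442 bp upstream of *Nfatc1*, a calcium-regulated transcription factor, had 18 and 18. *Snx10*, a sorting nexin, had 22 and 19, *Cd28*, a T cell costimulatory receptor, had 18 and 22, *Abca3*, a lipid transporter, had 19 and 19, and 1700112E06Rik had 17 and 26.

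On the RelB side the strongest were sites in introns of *Itgam*, an integrin of myeloid cells, with 19 and 25 window reads, of *Txnrd1*, thioredoxin reductase, with 19 and 21, and of *P4ha1*, a collagen prolyl hydroxylase, with 20 and 19. *Dmbt1* was near a site in an *Fgfr2* intron with 22 and 19. *Ktn1* had 18 and 25, *Ggt6*, a γ-glutamyltransferase family member, had 17 and 21, *Dut*, the dUTPase, had 18 and 17, and Vmn2r121 had 20 and 31. The last belongs to a large family of similar vomeronasal receptor genes, so its site is uncertain. Of 250 listed genes with a reproducible site of either factor, 17 had sites of RelA only and 6 of RelB only. Over all 4196 such genes the shares were 5.72% and 5.51%. The 17 included *Myd88* and *Ticam1*, adaptors of Toll-like receptors, the chemokine genes *Cxcl5*, *Ppbp* and *Ccl25*, the death receptor gene *Tnfrsf10b*, *Bmp2* and *Fgf7*. The 6 were *Txnrd1*, *Ebf1*, *Inhbb*, *Zyx*, *Hk1* and *Btg1*.

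The lean to either factor differed by where a site lay. Over the 237 sites within 1 kb of a protein-coding start site, the mean difference was 0.11, and each of the 4 pairings of a RelA with a RelB list gave a positive value, from 0.06 to 0.16. Over 735 other sites in gene bodies it was −0.02, and over 888 intergenic sites −0.05, with pairings on both sides of 0. The lists did not overlap in favor of RelA at 33.3% of the start-site group and in favor of RelB at 17.7%, against 21.9% and 25.6% of all sites. At the 88 sites that covered a start site the mean was 0.24, and the highest were at *Csf1*, *Map3k8*, *Rela*, *Fas*, *Atr*, which encodes a DNA damage kinase, and *Nfkbiz*, and the lowest at *Ifnar1*. Of the sites called, 6 of the 17 higher for RelA and 0 of the 15 higher for RelB lay within 1 kb of a start site. Of all 1860 sites, 12.7% did. At an unadjusted p under 0.05 there were 27 sites for RelA and 11 for RelB among the 237 within 1 kb of a start site. Over all 1860 sites, 253 passed that threshold, both directions together. Input reads had a median of 6 in each of the 3 classes of place. The lists also differed before TNF, where 27 of 182 and 31 of 194 RelA peaks, but 1 of 35 and 0 of 14 RelB peaks, lay within 1 kb of a start site. None of the 1860 sites overlapped a RelA peak at 0 h and 3 overlapped a RelB peak. The part of the antibody itself in the start-site lean was not tested.

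The number of κB matches moved with the lean too. A match within 100 bp of the center of the fullest window was present at 82.6% of the 1860 sites, against 11.8% of windows of the same length 1 kb to either side. Matches that start at different bases were counted separately even where they overlap. A site with 2 or more matches can therefore hold 1 longer element, and such sites are not among those with exactly 1 match. Sites with 0 or 1 match had mean differences of −0.10 and −0.10, sites with 2 had 0.09 and sites with 3 or more had 0.14. The RelA lists rose with the number of matches, from a mean log2 of 0.40 and 0.30 without a match to 0.80 and 0.68 with 3 or more. The RelB lists moved less, from 0.45 and 0.46 to 0.56 and 0.64. Sites within 1 kb of a start site and with 2 or more matches had the largest lean of the combined classes, 0.24 over 117 sites, while those with fewer had −0.01 over 120. Away from start sites the corresponding values were 0.08 over 594 sites and −0.11 over 1029. The AP-1 motif (TGANTCA, which is its own reverse complement) occurred at 19.2% of sites and 6.53% of the windows to either side, and sites with it had a mean of −0.06.

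Among the 825 sites with exactly 1 match, the lean differed by the center bases of the match. These classes were noticed after the values were seen, and are given as a description. With A or T at both center bases (positions 5 and 6 of the 10), the mean difference was −0.01 over 496 sites. With a G or C at either, it was −0.23 over 329 sites, and the 4 pairings of lists ranged from −0.33 to −0.13. In the G or C class both RelB lists lay above both RelA lists at 45.6% of sites and the reverse held at 8.21%, against 21.2% and 19.2% in the A or T class. The difference between the classes was −0.22, and it was −0.21 for sites away from start sites. The RelA lists changed little between the classes, at 0.56 and 0.47 against 0.54 and 0.42, and the RelB lists rose from 0.49 and 0.55 to 0.66 and 0.75. At 0 h, RelA peaks with a single match were few and mostly of the G or C class, 19 of 23 and 23 of 30.

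The κB sequences behind this are printed as read on the strand that starts with the consensus, with their number of sites and median difference. Those with the lowest and the highest medians among sequences found at 15 or more sites are shown.
GGAAACCCCC: 18 sites, median difference −0.30
GGAAACTCCC: 44 sites, median difference −0.29
GGAAAGTCCC: 110 sites, median difference −0.29
GGAAAGCCCC: 49 sites, median difference −0.24
GGAATTCCCC: 70 sites, median difference 0.06
GGAATTTCCC: 37 sites, median difference 0.11
GGAAAACCCC: 29 sites, median difference 0.15
Of the 110 sites with GGAAAGTCCC or its reverse complement GGGACTTTCC, 59 had both RelB lists above both RelA lists and 9 the reverse. For GGAATTTCCC it was 6 and 11 of 37. In the site test 0 of the 110 sites were called for RelA and 0 for RelB. These sequences are spread over many loci, and the *Bcl3* site 4034 bp upstream, which leaned to RelB without being called, holds GGAAAGTCCC. Others of the 110 leaned to RelA. The *Nfkbia* start site had 50 and 53 window reads against 43 and 44, and a site in an *Egfr* intron had 27 and 27 against 12 and 19.

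**Figure D5:**
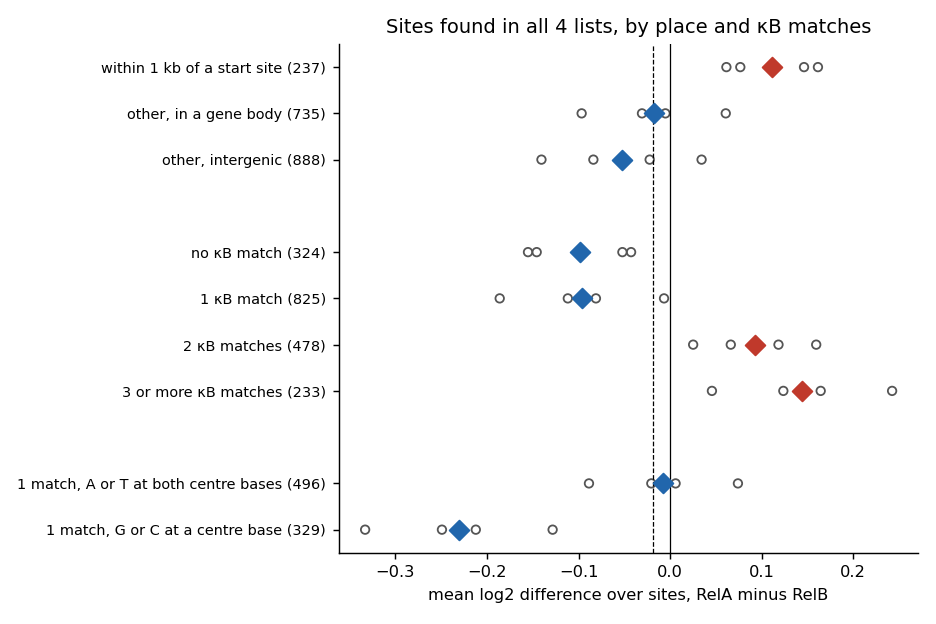
Mean difference over sites (x axis, log2, RelA minus RelB) by place, number of κB matches and center bases of a single match, with the number of sites in brackets. Diamonds are means over both lists of each antibody and open circles the 4 pairings of 1 RelA with 1 RelB list. The dashed line is the mean of all 1860 sites. Sites near start sites and with 2 or more matches lie to the right, and single matches with a G or C center lie to the left.

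Sites of 1 factor only, which entered none of these read comparisons, differed in these features too. Of 391 sites found in both RelA lists and neither RelB list, 22.8% lay within 1 kb of a start site (Wilson 95% interval 18.9 to 27.2%), against 7.63% (5.73 to 10.1%) of 577 sites found in both RelB lists and neither RelA list. Over all peaks of a list the gap was smaller, at 13.5 and 13.5% in the RelA lists and 10.5 and 10.2% in the RelB lists. At least 2 κB matches were present at 28.6% (24.4 to 33.3%) of the RelA sites and 13.7% (11.1 to 16.7%) of the RelB sites. Among sites with exactly 1 match, the center held a G or C at 37.5% (29.4 to 46.4%) of 120 RelA sites and 62.3% (56.1 to 68.1%) of 244 RelB sites. At sites of all 4 lists that share was 39.9% of 825. The intervals cover counting error over sites, and come from the same 4 libraries. Taking all peaks of a list, a G or C center was found in 43.9 and 42.5% of single matches in the RelA lists, and in 48.0 and 48.1% in the RelB lists.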

How the data were processed

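ChIP was done in *Nfkb2*-/- MEFs with antibodies against RelA or RelB. The authors trimmed reads with cutadapt (bases under quality 20), aligned them uniquely to mm9 with Bowtie and called peaks in each library against the input with cisGenome 2.0 (200-base windows, at least 4 reads, FDR under 0.1, fold over 2). The deposited lists give read counts per peak, raw and not normalized, with p-values and q-values (FDR) and log2 fold enrichments. The 4 lists at 6 h hold 5192 to 7052 peaks and 120352 to 162105 reads in peaks. Total reads per library are not given in the sources used here, so lists were scaled by their own medians. The floor of 10 or 11 reads in a called window limits how low a value can be.

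Peaks overlapping by 1 bp or more were merged. Genes and distances came from the GENCODE annotation of NCBIM37 (mm9), and the sequences from that genome. edgeR 4.0.16, DESeq2 1.42.0 and limma 3.58.1 were run in R 4.3.3, and other steps in Python 3.11.15. The scripts were run on simulated data with known changes, whose values are not given here. Alternatives were other tools, scalings, distances, thresholds and leaving out each list. Members, gene lists and named genes were chosen with earlier results of these data known. Up to 12 called genes per direction, 1 per set of shared sites, were named by size of difference, with up to 8 genes per direction with sites of 1 factor, called members and extremes of each list, and the genes the study followed. A few genes and 1 site that these rules name are not reported here.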

Additional observations from a re-analysis of the deposited data

How the results depend on the processing

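Against 32 sites and 64 genes called, DESeq2 called 0 sites (49 at an unadjusted p under 0.05) and 5 genes, and limma 20 sites and 100 genes. All reads of a peak gave 121 sites (99 for RelA, 22 for RelB) and 171 genes (146 and 25), or with TMM factors 167 sites and 177 genes (122 and 55). With the spread held at or above counting noise 2 sites were called, and with a mean of at least 20 reads 51 sites (21 and 30). The FDR limit of 0.01 gave 29 sites (8 and 21) and 51 genes (13 and 38). Leaving out 1 list gave 0 to 0 sites (146 to 181 at an unadjusted p under 0.05) and 0 to 15 genes. With the replicate block in edgeR, 0 sites and 0 genes were called (237 and 283 at an unadjusted p under 0.05). The labels do not say whether lists of the 2 antibodies with the same replicate number were made together. The replicate differences of the antibodies correlated at r = 0.0028 across sites.

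Start sites within 10 kb gave 18 genes (12 and 6), within 100 kb 138, all annotated genes 24, and every peak summed 3 (3 and 0). Genes with sites of 1 factor only, 471, became 226 within 10 kb (134 and 92), 745 with all annotated genes and 1350 to 2426 without 1 list. The difference between κB center classes, −0.22, became −0.36 with all reads. That between start-site and other sites, 0.15, became 0.26 with all reads, 0.21 with at least 20 reads and 0.27 for sites covering a start site. That between sites with at least 2 κB matches and fewer, 0.21, became 0.31, 0.25 and, away from start sites, 0.19. *Bcl3* turned to 0.11 with all reads, and *C3* and *Glis2* to 0.26 and 0.10 with every peak summed. Of 33 genes recomputed, the other 30 kept their direction in every alternative that gave a value, and the remaining list members and genes with sites of 1 factor were not recomputed singly. The causes were not tested.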
